A study of Mus musculus with 4 samples.

Results

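The pepsin-family aspartic proteases and their relatives were followed in K-Ras-driven mouse lung tumours with and without the histone methyltransferase gene Mll4. The set held 7 genes of the 24391 listed in each library, taken by gene symbol: Ctse, Pgc and Cym, known from the stomach; Napsa, known from the lung; and the more widely made Ctsd, Bace1 and Bace2. All 7 symbols were found. The set was selected on expression differences between these same 4 tumour samples that were already known, so the values of its members are given as a description and without p-values.

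Libraries came from 2 tumour samples labelled K-Ras, with the genotype K-RasLSL-G12D, and 2 labelled K-Ras Mll4-/-, with the genotype K-RasLSL-G12D;Mll4fl/fl. All 4 samples therefore carry the lox-stop-lox allele of mutant K-Ras, which is silent until Cre recombinase removes the stop cassette, and the second group differs by floxed Mll4 alleles. The source of Cre, the strain, the age of the mice and whether samples came from separate animals are not given in the sources used here, so the spread between replicates may be technical. Cells bearing the leukocyte antigen CD45 had been depleted with magnetic beads before RNA extraction.

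Aspartic proteases cut peptide bonds with a pair of aspartate residues in the active site and work best in acid. Pepsinogen C, chymosin, cathepsin E, cathepsin D and napsin A are made as inactive precursors and are activated in the gastric lumen or in endosomes and lysosomes, whereas the beta-secretases BACE1 and BACE2 are anchored in membranes. In the lung, napsin A is a product of alveolar type 2 cells, where it takes part in the maturation of surfactant protein B, and it is widely used as a marker of lung adenocarcinoma. Cathepsin E is abundant in the surface epithelium of the stomach, and chymosin is the milk-clotting enzyme of the newborn stomach.

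Reads assigned to genes ranged from 26683033 to 36677987 per library. Levels are given as CPM, that is reads in proportion to the size of the library, with library sizes adjusted by edgeR's TMM method, and 3 reads, taken as the floor of detection, corresponded to 0.0830 to 0.114 CPM. All 10 alveolar type 2 markers examined were present in every library. Kmt2d, the current symbol of Mll4, was at 395 and 526 CPM in the K-Ras libraries and at 367 and 317 CPM in the K-Ras Mll4-/- libraries, and the edgeR log2 fold change was -0.43 (SE 0.21, adjusted p = 0.302). Gene totals do not show the loss of single exons, so the genotype is taken from the labels. Ptprc, the CD45 gene, was still present after depletion, at 274 and 143 CPM in the K-Ras and 269 and 171 CPM in the K-Ras Mll4-/- libraries. K-Ras replicate 2 stood apart in airway markers, with a summed level of 774 CPM for 9 ciliated cell markers against 69.7 to 133 CPM elsewhere, and of 3832 CPM for 6 club cell markers against 668 to 848 CPM.

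Ctse and Cym were the members that stood higher in the K-Ras Mll4-/- tumours, while Napsa, Ctsd, Bace1 and Bace2 differed little in their group means and Pgc stayed near the floor of detection. Ctse, which encodes cathepsin E, was at 22.8 and 9.93 CPM in the K-Ras libraries and at 374 and 475 CPM in the K-Ras Mll4-/- libraries. The groups did not overlap, and the lowest K-Ras Mll4-/- value was 16.4 times the highest K-Ras value. The means were 16.4 ± 9.12 and 425 ± 71.0 CPM (SD, n = 2 each), a ratio of 25.9, and the log2 fold change was 4.70 (SE 0.50). It lay between 4.204 and 5.42 when single libraries were left out.

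Cym, the chymosin gene, had 2 reads in each K-Ras library, 87 reads in K-Ras Mll4-/- replicate 1 and 3878 reads in replicate 2. In CPM these were 0.0654 and 0.0553 in the K-Ras libraries against 3.31 and 120 in the K-Ras Mll4-/- libraries. Both K-Ras values are under the floor. Against the 4 reads of the K-Ras libraries together, the level was 55.3 times as high in replicate 1 (95% exact interval 20.8 to 207) and 2007 times as high in replicate 2 (783 to 7369). These intervals cover counting error only. No mean is informative for Cym in the K-Ras Mll4-/- group, because replicate 2 carried nearly all of its reads.

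The difference in Cym between the K-Ras Mll4-/- replicates was 35.5-fold, computed with 2 reads added to each count. Among the 14483 tested genes with a mean of at least 1 CPM, 0 showed a larger difference between these libraries, and the median absolute log2 ratio was 0.18. Ctse differed 1.27-fold between the same libraries. High Ctse was thus found in both K-Ras Mll4-/- libraries, and high Cym in replicate 2.

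**Figure D1:**
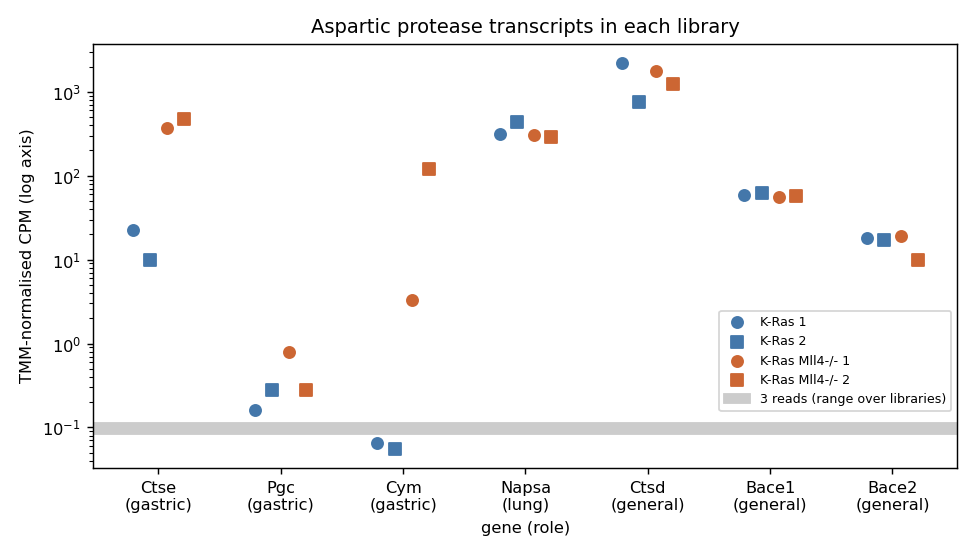
TMM-normalised CPM (log axis) of the 7 genes in each of the 4 libraries, blue for K-Ras and orange for K-Ras Mll4-/-, circles for replicate 1 and squares for replicate 2; the grey band is the level of 3 reads. Ctse is at 374 and 475 CPM in K-Ras Mll4-/- against 22.8 and 9.93 CPM in K-Ras, Cym spreads from 3.31 to 120 CPM within K-Ras Mll4-/-, and the 4 values of Bace1 lie close together.

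**Figure D2:**
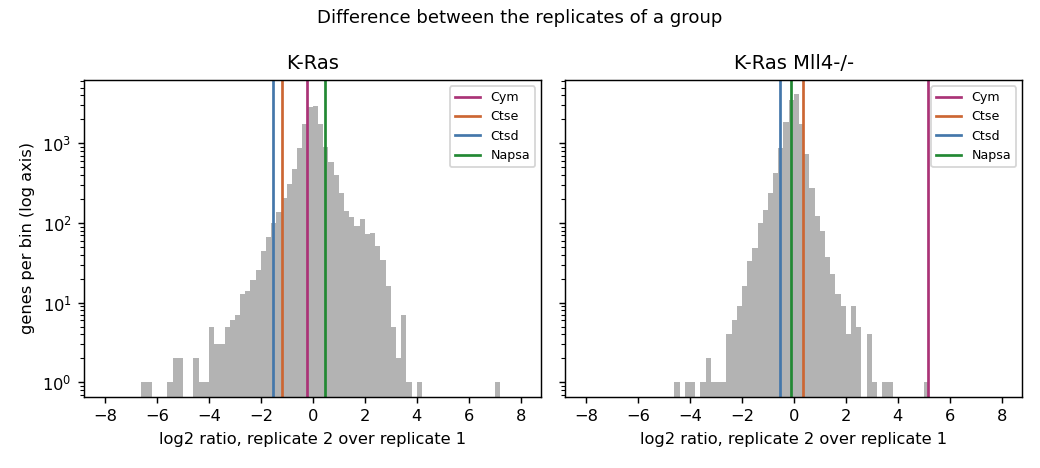
Log2 ratio of replicate 2 over replicate 1 within each group for the 14483 tested genes with a mean of at least 1 CPM (histogram, log axis of gene number), with Cym, Ctse, Ctsd and Napsa as vertical lines. In K-Ras Mll4-/-, Cym lies at 5.15, at the far end of the distribution, and Ctse at 0.34; in K-Ras, Ctsd lies at -1.53.

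Pgc encodes pepsinogen C, the precursor of the pepsin gastricsin, which gastric chief cells make and which is also known from alveolar type 2 cells. It had 5 and 10 reads in the K-Ras libraries and 21 and 9 reads in the K-Ras Mll4-/- libraries. These correspond to 0.164 and 0.277 CPM against 0.800 and 0.279 CPM. Replicate 2 of both groups was thus at nearly the same level, and the exact 95% Poisson limits of its counts, 4.80 to 18.4 reads and 4.12 to 17.1 reads, overlapped. The limits of replicate 1, 1.62 to 11.7 reads in K-Ras and 13.0 to 32.1 reads in K-Ras Mll4-/-, did not overlap. Such limits cover counting error only. Pgc did not pass the count filter of the main fit and was not tested there. Its log2 fold change was 1.26 in the edgeR fit without a count filter. In 3 fits that left out 1 library it lay between 0.94 and 1.83. These values rest on 21 reads or fewer per library, so the difference is not resolved at this depth. Cym passed the count filter of the main fit through the K-Ras Mll4-/- group alone.

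Napsa, the napsin A gene, was at 314 and 436 CPM in the K-Ras libraries and at 308 and 287 CPM in the K-Ras Mll4-/- libraries. K-Ras replicate 2 was the highest, and K-Ras replicate 1 was close to K-Ras Mll4-/- replicate 1. The means were 375 ± 86.0 and 298 ± 14.6 CPM (SD, n = 2 each). The log2 fold change was -0.33 (SE 0.21). Without K-Ras replicate 2, the library with high airway markers, it was -0.09. The summed alveolar type 2 markers were also highest in that library, at 37812 CPM against 24276 to 31675 CPM elsewhere. The part of airway or alveolar type 2 cells in the Napsa level was not tested.

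Ctsd encodes cathepsin D, a major protease of the lysosome in nearly all cells. It was at 2189 and 757 CPM in the K-Ras libraries and at 1778 and 1232 CPM in the K-Ras Mll4-/- libraries, so the K-Ras values enclosed the others. The log2 fold change of 0.03 (SE 0.56) became 0.99 without K-Ras replicate 1 and -0.55 without K-Ras replicate 2, and it was -0.04 with scaling by total counts or by the upper quartile. The summed level of 12 macrophage markers ran in the same order over the libraries. It was 6989 and 770 CPM in the K-Ras and 4232 and 1104 CPM in the K-Ras Mll4-/- libraries. Chil3 was the largest part of this sum in every library. Its level was 5697 and 381 CPM in the K-Ras and 3120 and 646 CPM in the K-Ras Mll4-/- libraries. Like Chil3, Cd68 and Itgax ran in this order, and the other markers of the list did not. Adgre1, for example, was highest in K-Ras Mll4-/- replicate 1, and Mertk was lowest in K-Ras Mll4-/- replicate 2. The part of macrophages in the Ctsd level was not tested.

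Bace1 and Bace2 encode transmembrane proteases, of which BACE1 makes the first cut in the release of amyloid beta from its precursor. Bace1 was at 59.1 and 62.6 CPM in the K-Ras libraries and at 56.2 and 57.3 CPM in the K-Ras Mll4-/- libraries, the smallest ratio of highest to lowest value among the 7 genes. Its log2 fold change of -0.10 (SE 0.12) changed sign to 0.01 with offsets for GC content and transcript length. Bace2 was at 17.9 and 16.9 CPM in K-Ras and at 19.3 and 9.93 CPM in K-Ras Mll4-/- tumours, where replicate 1 was the highest and replicate 2 the lowest of the 4 libraries. Its log2 fold change was -0.25 (SE 0.35), and it turned to 0.15 without K-Ras Mll4-/- replicate 2 and to -0.80 without K-Ras Mll4-/- replicate 1. Genes annotated on the opposite strand overlap Bace1 (3 genes) and Napsa (1 gene) in GENCODE M21, and a gene annotated on the same strand overlaps Ctsd (Gm49369) and Bace2 (Gm49681). Reads in the shared stretches of same-strand genes can be lost or split in counting, depending on the annotation. The strand setting of the counting is not given in the sources used here, so reads of such partners cannot be told apart from those of Bace1 and Napsa.

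**Figure D3:**
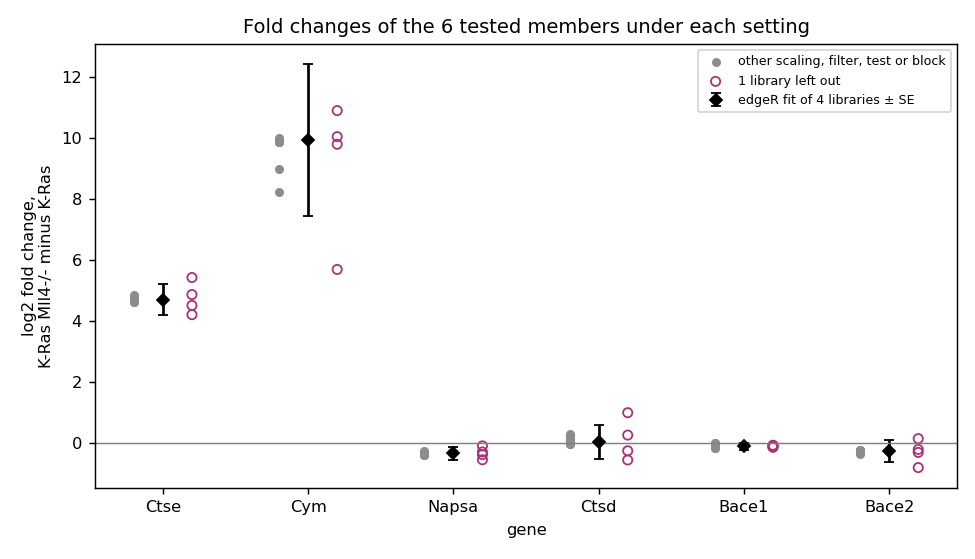
Log2 fold change (K-Ras Mll4-/- minus K-Ras) of the 6 genes that passed the count filter: black diamonds with SE bars for the edgeR fit of 4 libraries, grey points for other scalings, filters, tests and the replicate block, open circles for fits without 1 library. Ctse stays between 4.204 and 5.42, Cym falls to 5.69 without K-Ras Mll4-/- replicate 2, and Ctsd spans -0.55 to 0.99.

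By the edgeR quasi-likelihood test with Benjamini-Hochberg adjustment, 0 of the 7 members passed the threshold of 0.05 after adjustment, while 0.0375% of all tested genes did. At an unadjusted p under 0.05 there were 2, Ctse and Cym, against 21.8% of all tested genes. DESeq2 and the edgeR likelihood ratio test each called Ctse and Cym, where they called 10.0% and 9.39% of all genes, and limma-voom called 0 of the 7 and 0.0% of all genes. In an edgeR quasi-likelihood fit blocked on replicate number, Ctse and Cym were the 2 members called, where 1.36% of all genes were. Of the 6 tested genes, 4 did not overlap between the groups (Ctse, Cym, Napsa and Bace1), and 58.3% of all tested genes did not. Because the set was chosen in this contrast, nothing is read from these counts.

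To compare levels between genes, CPM was divided by the length of the merged exons in kilobases. In both K-Ras libraries the order of these per-length levels was Ctsd, Napsa, Bace1, Ctse, Bace2, Pgc and Cym. Ctsd was at 931 and 322 CPM per kb and Napsa at 118 and 164 CPM per kb, with Ctse at 7.20 and 3.13 CPM per kb. The ranges of neighbours in this order did not overlap, but Pgc and Cym rest on 10 reads or fewer and their order is not resolved.

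In the K-Ras Mll4-/- libraries Ctse was at 118 and 150 CPM per kb, beside Napsa at 116 and 108 CPM per kb. The stomach-type protease transcript thus reached the level of the lung-type one, at 1.02 and 1.39 times Napsa, compared with 0.0609 and 0.0191 times in the K-Ras libraries. With the longest transcript as the length, the ratio in K-Ras Mll4-/- replicate 1 was 0.892, so the order of Ctse and Napsa is not resolved there. Cym was at 2.68 CPM per kb in replicate 1 and at 97.3 CPM per kb in replicate 2, where it stood next to Napsa. Of the summed per-length level of the 7 genes, Ctse made up 0.674% and 0.625% in the K-Ras libraries and 11.8% and 16.8% in the K-Ras Mll4-/- libraries, and Cym made up 10.9% in K-Ras Mll4-/- replicate 2. Ctsd held the largest share in every library, from 58.9% to 87.2%.

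The regions just upstream of Cym, Pgc and Ctsd are shown because these were the members with an entry in the promoter table used here. Their levels differed widely: Cym was high in 1 library, Pgc near the floor and Ctsd abundant in all. Each is the 250 bases before the gene start from RefSeq (GRCm38.p6), in the direction of the gene. Capitals mark matches on either strand to the core of the box bound by TBP (TATAAA), to the core of the CLEAR element of lysosomal genes, which is also an E-box (CACGTG), and to core motifs of the zinc-finger factor GATA6 and its relatives (TGATAA), of FOXA factors (TGTTTAC) and of NKX2-1, which overlaps the general E-box form (CAAGTG).
Cym, chr3:107221733-107221982, minus strand: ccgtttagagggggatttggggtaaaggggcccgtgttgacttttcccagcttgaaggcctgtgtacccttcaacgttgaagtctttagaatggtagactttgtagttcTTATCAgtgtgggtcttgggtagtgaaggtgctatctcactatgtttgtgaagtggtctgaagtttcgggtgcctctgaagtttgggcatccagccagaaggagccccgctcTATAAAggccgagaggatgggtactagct
Pgc, chr17:47726592-47726841, plus strand: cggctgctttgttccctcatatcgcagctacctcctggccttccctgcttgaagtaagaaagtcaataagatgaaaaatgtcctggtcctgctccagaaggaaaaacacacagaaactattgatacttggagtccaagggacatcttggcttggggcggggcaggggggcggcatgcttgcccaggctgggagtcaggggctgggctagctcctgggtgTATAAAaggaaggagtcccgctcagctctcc
Ctsd, chr7:142387828-142388077, minus strand: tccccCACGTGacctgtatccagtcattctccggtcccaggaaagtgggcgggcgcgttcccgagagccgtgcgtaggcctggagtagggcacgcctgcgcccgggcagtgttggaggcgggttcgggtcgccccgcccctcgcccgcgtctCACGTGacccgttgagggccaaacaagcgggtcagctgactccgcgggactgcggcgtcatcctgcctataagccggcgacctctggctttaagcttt

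The gastric genes Cym and Pgc each held TATAAA, starting 29 and 31 bases before the gene start, and 12.4% of the 32851 RefSeq windows of this length held it. Cym also held TGATAA on the opposite strand, found in 7.94% of windows. Ctsd held CACGTG at 2 places, against 6.02% of windows with at least 1 match, and 10 of the 33 genes with a window in the lysosomal list described below held it, beside 6.86% of all 27025 genes with a window. TGTTTAC and CAAGTG, in 3.17% and 11.6% of windows, were not among the letters of the 3 windows. These matches are descriptions of sequence and were not related to binding. Windows of Ctse, Napsa, Bace1 and Bace2 were not analysed here.

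Markers of cells in which these proteases are known were read beside them. Bulk levels cannot tell fewer cells of a type from less RNA per cell. Parietal, chief and endocrine cell markers of the stomach were few: the 7 genes summed to 7.06 and 7.31 CPM in the K-Ras and 4.88 and 2.58 CPM in the K-Ras Mll4-/- libraries. Pga5, a pepsinogen gene, and Gast, the gastrin gene, had 0 reads in all 4 libraries, and Atp4b, a subunit of the gastric proton pump, had 0 to 3 reads. The sum was carried mainly by Ghrl, the ghrelin gene, with 47 to 193 reads, and Lipf, the gastric lipase gene, with 6 to 119 reads. These 7 genes include none of the stomach surface epithelium, so their sum does not describe stomach-type expression as a whole. In the wider gastric list described below, 17 of the 21 tested genes had a positive and 4 a negative log2 fold change. Gkn2 in that list was at 317 and 384 CPM in the K-Ras Mll4-/- libraries. The part of stomach-type cells in the Ctse and Cym levels was not tested.

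Cathepsin E is also known from dendritic cells, B cells and red blood cells. The 10 dendritic and B cell markers summed to 135 and 111 CPM in the K-Ras and 102 and 92.4 CPM in the K-Ras Mll4-/- libraries. Of these 10 genes, 6 had a positive and 4 a negative log2 fold change, with a median of 0.05. Zbtb46, a dendritic cell transcription factor gene, was at 47.2 and 47.6 CPM in the K-Ras and at 27.8 and 23.5 CPM in the K-Ras Mll4-/- libraries, so it made up much of the difference in the sum. Of 8 red blood cell markers found in the files, 4 were tested, and their sum ranged from 8.44 to 36.0 CPM in K-Ras and from 16.4 to 25.6 CPM in K-Ras Mll4-/- libraries. Globin genes have near-identical copies and their counts are uncertain. The summed alveolar type 2 markers, at 24276 and 37812 CPM in K-Ras and 31675 and 30961 CPM in K-Ras Mll4-/- libraries, overlapped between the groups as Ctse did not.

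**Figure D4:**
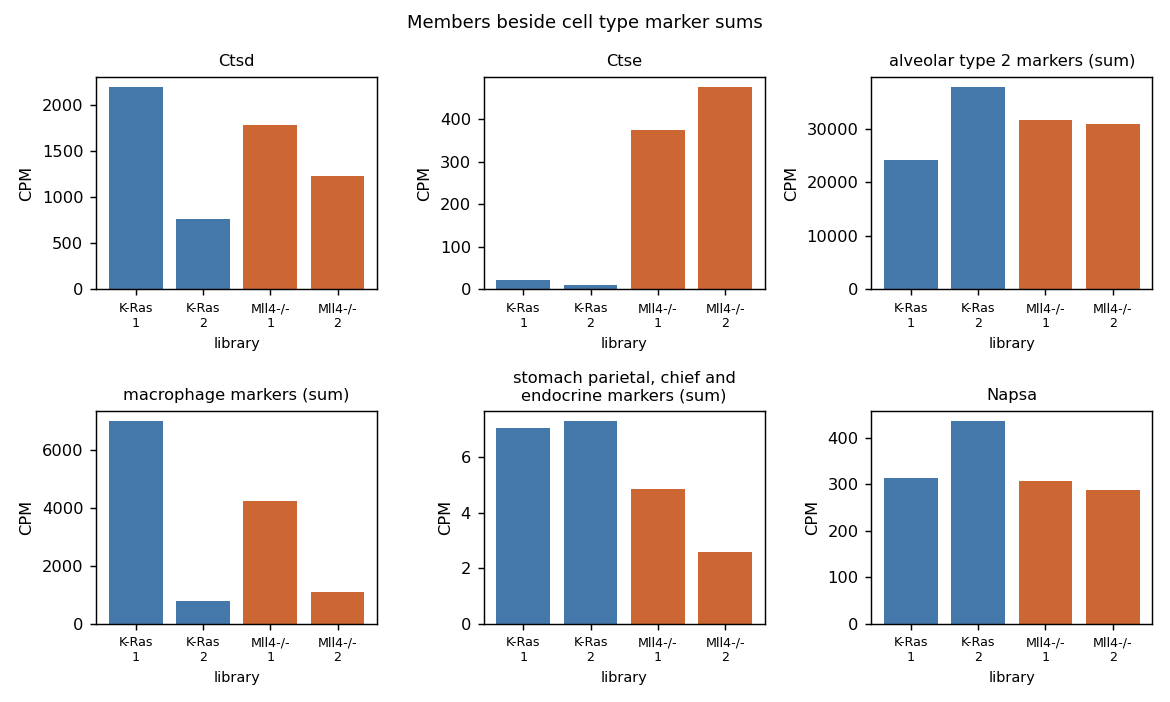
CPM in each library (blue K-Ras, orange K-Ras Mll4-/-; bars from 0) of Ctsd above the macrophage marker sum, Ctse above the sum of stomach parietal, chief and endocrine markers, and the alveolar type 2 marker sum above Napsa. Ctsd and the macrophage sum are highest in K-Ras replicate 1 and lowest in K-Ras replicate 2. Chil3 is the largest part of the macrophage sum in every library, and most markers of that list do not follow the order of Ctsd. The sum of these stomach markers, which include no surface epithelium gene, stays between 2.58 and 7.31 CPM in all libraries.

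Genes that work with these proteases were taken from lists. Of 15 other aspartic proteases and relatives, 11 were tested and 0 were called by edgeR in either direction. Of the 11, 1 (9.09%) had an unadjusted p under 0.05, beside 21.8% of all tested genes. Their median log2 fold change was -0.17, beside -0.01 over all 16001 tested genes. The lowest was Asprv1, a skin protease (log2 fold change -2.67, SE 1.13, edgeR adjusted p = 0.259), and the highest was Nrip2 (0.84, SE 0.37, edgeR adjusted p = 0.269). H13, the signal peptide peptidase gene, followed at 0.47 (SE 0.16, edgeR adjusted p = 0.203), and Ddi1 was at -0.72 (SE 0.34, edgeR adjusted p = 0.294).

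The 14 genes of surfactant protein processing and lamellar bodies had a median log2 fold change of 0.04, and 0 were called by edgeR. Of the 14, 1 (7.14%) had an unadjusted p under 0.05, beside 21.8% of all tested genes. Ctsh encodes cathepsin H, which acts with napsin A on the surfactant protein B precursor. It was at 537 and 688 CPM in the K-Ras and at 1447 and 2296 CPM in the K-Ras Mll4-/- libraries, without overlap (log2 fold change 1.61, SE 0.31, edgeR adjusted p = 0.147). Sftpb, the gene of that precursor, was at 2871 and 5629 CPM against 7045 and 10342 CPM (1.03, SE 0.44, edgeR adjusted p = 0.258). Sftpc, the surfactant protein C gene, overlapped between the groups at 5842 and 10747 against 7740 and 5748 CPM (-0.30, SE 0.39, edgeR adjusted p = 0.686). Sftpa1 was at -0.37 (SE 0.27, edgeR adjusted p = 0.461). Napsa, at -0.33, thus lay near the lower end of the range of these genes, which ran from -0.37 to 1.61.

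Of 27 gastric epithelial genes, 21 were tested and 1 was called by edgeR, higher in K-Ras Mll4-/- tumours, with 0 lower. Without adjustment, 10 genes were higher and 1 lower at an edgeR p under 0.05, together 52.4% of the 21, beside 21.8% of all tested genes. The median log2 fold change was 1.02. The median was the same with the genes that had 0 reads in a whole group set at their lower bound. The called gene was Gkn2, which encodes the stomach mucosal protein gastrokine-2, at 3.47 and 3.18 CPM in the K-Ras and 317 and 384 CPM in the K-Ras Mll4-/- libraries (6.72, SE 0.21, edgeR adjusted p = 0.0184). Ctse showed the same split of the libraries. This list was drawn up with results of these samples known and is not independent evidence of its direction.

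The 41 genes of lysosomal enzymes and membrane proteins, among which Ctsd works, had a median log2 fold change of 0.15, with 27 higher and 14 lower. None was called by edgeR in either direction, and 8 of the 41 had an unadjusted p under 0.05, or 19.5% beside 21.8% of all tested genes. These 8 had positive log2 fold changes. After Ctsh, the highest was Npc2, a lysosomal cholesterol carrier gene (0.81, SE 0.24, edgeR adjusted p = 0.185). The lowest was the cysteine protease gene Ctsk (-1.48, SE 1.26, edgeR adjusted p = 0.527), which was at 425 CPM in K-Ras replicate 1 and at 32.5 CPM in K-Ras replicate 2. Ctsf, another cysteine cathepsin gene, was at -0.44 (SE 0.31, edgeR adjusted p = 0.449).

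Of 28 genes of amyloid precursor cleavage and BACE trafficking, 27 were tested, 0 were called by edgeR and 4 had an unadjusted p under 0.05, or 14.8% beside 21.8% of all tested genes. The median log2 fold change was 0.18. App, the gene of the precursor cut by BACE1, was at 1079 and 1069 CPM in the K-Ras and 1214 and 1158 CPM in the K-Ras Mll4-/- libraries (0.14, SE 0.18, edgeR adjusted p = 0.662). The competing alpha-secretase gene Adam10 was at 0.63 (SE 0.19, edgeR adjusted p = 0.185) and the related Adam9 at 0.87 (SE 0.21, edgeR adjusted p = 0.164). The lowest were Gga2, an adaptor of BACE sorting (-0.48, SE 0.19, edgeR adjusted p = 0.234), and Lrp1 (-0.38, SE 0.39, edgeR adjusted p = 0.601).

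**Figure D5:**
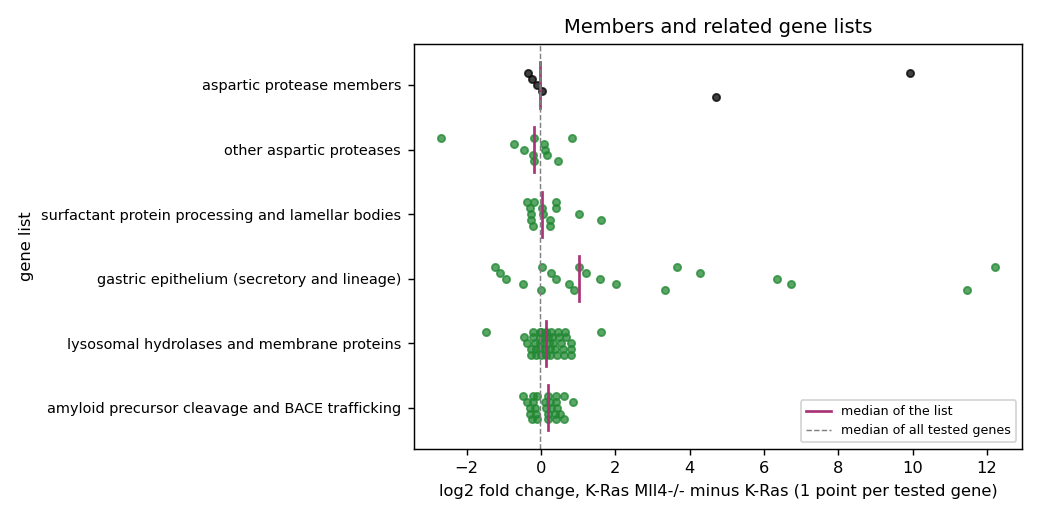
Log2 fold change (K-Ras Mll4-/- minus K-Ras) of each tested gene, 1 point per gene, in the protease set (black) and in 5 related lists (green), with the median of each list (purple line) and of all tested genes (dashed line, -0.01). The gastric list has a median of 1.02 and the other lists lie between -0.17 and 0.18.

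Genes with the most similar pattern over the 4 libraries were found by the Euclidean distance between centred log2 CPM values among the 14482 other tested genes with a mean of at least 1 CPM. The nearest to Ctse were Car12, a carbonic anhydrase gene (distance 0.52), Syt16 (0.66) and Pbp2 (0.71). Car12 was at 1.11 and 0.360 CPM in the K-Ras and 12.4 and 15.9 CPM in the K-Ras Mll4-/- libraries. No gene came as close to Cym, whose nearest were Krt14, a basal keratin gene (distance 2.16), Pdx1, a foregut and pancreas transcription factor gene (2.69), and Alpi, an intestinal alkaline phosphatase gene (2.89). Krt14 had 7.05 and 34.7 CPM in the K-Ras Mll4-/- libraries and Pdx1 6.25 and 16.1 CPM, both higher in replicate 2 as Cym was, with 0 to 2 reads in the K-Ras libraries. The nearest to Napsa were Stim1 (0.01), Frmd6 (0.04) and Zfp319 (0.04), each highest in K-Ras replicate 2.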

How the data were processed

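RNA was sequenced from 4 mouse lung tumour samples, 2 per group. The authors deposited raw read counts per gene symbol. CASAVA 1.4, STAR, HTSeq and the build mm9 are named in the submitters' processing notes; the annotation and strand setting are not given in the sources used here. Per the file layout, multiply aligned reads went into a closing line and not to any gene, which lowers the counts of genes with close copies. The 5 closing tally lines were left out of library sizes. Genes were filtered with filterByExpr (minimum count 10), scaled by TMM and tested with edgeR 4.0.16 (R 4.3.3, robust quasi-likelihood, Benjamini-Hochberg adjustment over 16001 genes, called under 0.05). The SE is the fold change divided by the square root of F. The script was tested on simulated data. Alternatives used limma 3.58.1, DESeq2 1.42.0 and mgcv 1.9.3. Lengths and GC content came from GENCODE M21 (GRCm38), which differs from the build of the counts, so no gene positions are given apart from those of the RefSeq windows.

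The members and lists were chosen with earlier results of these data known. Named genes were the members, Kmt2d, Ptprc and genes set by role; in each list the called genes, or otherwise the 2 with the largest fold change in each direction at a mean of at least 1 CPM; and the 3 genes nearest in pattern to Ctse, Cym and Napsa. In the surfactant and amyloid lists those rules overlap.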

Additional observations from a re-analysis of the deposited data

How the results depend on the processing

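Against 6 genes called by edgeR, 44 were called without a count filter, 1601 by DESeq2, 1503 by the likelihood ratio test, 0 by limma-voom (3228 at an unadjusted p under 0.05), and 0 to 528 when single libraries were left out, the 528 without K-Ras replicate 1. Of the 7 proteases, 0 were called in the main comparison, 2 by DESeq2, 2 by the likelihood ratio test and 0 to 1 when single libraries were left out (Ctse, without K-Ras replicate 1). The surfactant list went from 0 called genes to 1 with DESeq2 and 1 with the likelihood ratio test. The gastric list went from 1 to 10 by both, to 0 by limma-voom and to 0 to 2 when single libraries were left out. The lysosomal list went from 0 to 4 and 3, and the amyloid list from 0 to 1 and 1. Over all tested genes, DESeq2 called 10.0% and the likelihood ratio test 9.39%. The cause of these differences was not tested. A group of 1 library is assumed to vary like the other group.

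Replicate numbers are shared by the groups, but the labels do not say what they stand for. Deviations from the group means correlated at 0.21 across genes between same-numbered libraries. With the replicate block, 217 genes, 2 of the 7 proteases (Ctse and Cym) and 6 gastric genes were called. With the replicate block and GC and length offsets together these were 389, 2 and 9, with 1 gene called in each of the surfactant and lysosomal lists.

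The Ctse to Napsa ratio of 1.02 per merged exon length in K-Ras Mll4-/- replicate 1 became 0.892 per longest transcript, a length chosen after seeing the data. In the 14 fits of all 4 libraries, the log2 fold change of Ctse lay between 4.63 and 4.83, that of Cym between 8.21 and 10.00 and that of Napsa between -0.39 and -0.27. Depth limits Pgc, and Cym in K-Ras.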
